A study of Mus musculus with 12 samples.

Results

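Heparan sulfate is built by a chain of Golgi enzymes on a small set of core proteins, and the genes of that machinery were read across mouse cortical cultures kept with or without thyroid hormone. The genes were chosen by symbol: xylosyl-, galactosyl- and glucuronyltransferases of the linker, exostosins, sulfate donor synthases, the sulfotransferases and epimerase that modify the chain, the sulfatases and heparanase that edit it, and the glypican, syndecan, perlecan and agrin core proteins. The symbols matched 45 genes of the annotation, and 42 of these were among the 14801 genes in the deposited table. Hpse, Hs3st3a1 and Hs3st6 were not listed there, and a gene enters the table at 1 CPM or more in at least 2 libraries. The family was proposed with T3 results of these data known, the decrease of Ndst3 among them, so the T3 values of Ndst3 are given as a description with no p, and counts over the family support nothing about the family as a whole.

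The cells came from the cerebral cortices of wild type mouse fetuses at gestational day 17.5 and were grown for 9 days. The labels name no strain. The B27 supplement was withdrawn from all cultures for 24 h. One group of 6 cultures then received triiodothyronine (T3), the active thyroid hormone, at 10 nM for 24 h, and the other group of 6 received none; each of 6 fetuses, called mouse 1 to 6, supplied 1 culture of each kind. Serum and laminin were used at plating in both groups, and the cells were a mixed primary culture with no sort. Transcripts were measured by RNA sequencing, and values are CPM, gene reads relative to library size, with the sizes corrected for composition by the TMM method.

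Heparan sulfate is a linear sugar polymer that begins with a short linker on serine residues of a core protein, is extended by alternating glucosamine and glucuronic acid, and is then N-sulfated, epimerized and O-sulfated in patches. The pattern of sulfate groups sets which growth factors, morphogens and guidance cues a chain can hold. In the developing cortex the chains are known as co-receptors for fibroblast growth factors, for Slit and Robo signaling in axon guidance, and for partners at synapses.

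Promoter sequence was examined because 9 of the genes passed the test for a T3 difference and thyroid hormone receptors bind a known core motif, AGGTCA. The RefSeq promoter table of build GRCm38.p6 held 32 of the 42 genes with 39 start sites, and the 250 bases before each start were searched on both strands. AGGTCA lay in 6 of the 39 windows, while 14.0% of all 32851 windows of the same length held it. Of the 12 windows of genes past the threshold, 3 held it: Extl2, Hs6st2 and Sdc4. The direct repeat of this motif with a spacer of 4 bases lay in 0 of the 39 windows and in 0.0152% of all windows. A match is a description of letters and not evidence of binding. The windows of Extl2 and Sdc4 that hold the motif, in capitals, are shown. Those of Ndst3 are shown because its decrease led to the choice of the family, and they hold no match. Only stretches outside annotated exons are printed, which leaves out Hs6st2. Each is written from 5′ to 3′ on the strand of the gene.
Ndst3, chr3:123619502-123619700, minus strand: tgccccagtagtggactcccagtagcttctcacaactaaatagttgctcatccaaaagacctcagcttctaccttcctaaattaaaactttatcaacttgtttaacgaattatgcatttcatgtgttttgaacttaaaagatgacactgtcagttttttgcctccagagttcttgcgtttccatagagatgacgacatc
Ndst3, chr3:123672578-123672727, minus strand: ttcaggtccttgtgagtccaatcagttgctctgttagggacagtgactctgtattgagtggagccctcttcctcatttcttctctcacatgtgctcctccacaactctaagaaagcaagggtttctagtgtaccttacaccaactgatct
Extl2, chr3:116008047-116008219, plus strand: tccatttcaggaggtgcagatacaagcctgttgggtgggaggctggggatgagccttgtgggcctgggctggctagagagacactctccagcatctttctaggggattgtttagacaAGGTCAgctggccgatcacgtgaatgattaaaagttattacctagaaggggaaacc
Sdc4, chr2:164443189-164443438, minus strand: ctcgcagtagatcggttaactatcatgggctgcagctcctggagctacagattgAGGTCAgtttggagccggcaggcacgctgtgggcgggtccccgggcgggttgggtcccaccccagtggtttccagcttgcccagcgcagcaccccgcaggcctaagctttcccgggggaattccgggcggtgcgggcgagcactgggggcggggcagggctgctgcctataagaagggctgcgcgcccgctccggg
The motif began 133 bases before an inner start of Extl2, where it read along the gene, and the outer Extl2 window held no match. It began 138 bases before a start of Hs6st2, on the opposite strand, and the other Hs6st2 window held no match. In Sdc4 it began 196 bases before the start, along the gene. The matching windows of all 3 genes lie inside the annotated bounds of their genes. The windows of Ndst3 held 40.4% and 42.4% GC; both lie inside the gene's annotated bounds, and its outermost start was not in the promoter table. The median over the 39 windows was 64.8%, against 52.4% over all windows. The motif GGGCGG, the core of the box bound by Sp1, was found in 23 of the 39 windows and in 32.7% of all windows, and in 0 of the Ndst3 windows.

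The libraries held 5272092 to 10837895 reads. Each mouse had the deeper library with T3 (6 of 6), with 1.03 to 1.67 times the reads. A two-sided exact permutation test by sign flips gave p = 0.03125, the smallest that 6 pairs can give. A count of 0 would allow 0.273 to 0.557 CPM, a limit set at 3 reads that covers counting error only. Hr, a classical T3 target, stood at 5.49 ± 1.23 CPM without T3 and at 46.5 ± 2.92 with it (SD, n = 6), as a check of the labels. The summed level of 7 neuron markers was 6624 to 8614 CPM without T3 and 6270 to 7627 with it, higher in 1 of 6 mice. Of these 7, 2 passed an adjusted p under 0.05 (limma), Nefl and Rbfox3, each higher with T3 in 6 of 6 mice. The median log2 difference of the 7, T3 minus no T3, was -0.06. Over all genes tested, 5.52% passed. The summed level of 6 astrocyte markers was 722.5 to 2387 CPM without T3 and 1090 to 2794 with it, higher in 6 of 6 mice. Of the 5 tested, 4 passed the same threshold, all higher with T3. The sum of 7 markers of the oligodendrocyte lineage was also higher in 6 of 6 mice, at 341.5 to 493.8 and 436.7 to 548.4 CPM. Of these 7, 2 passed, Olig1 and Olig2, each higher with T3. Markers of microglia (2.2 to 6.68 CPM in sum) and endothelium (5.86 to 32.1) were low, and Tmem119, P2ry12, Cdh5, Cldn5 and Tek were not listed. In bulk cultures, fewer cells of a type and less RNA per cell cannot be told apart. Mouse 4 without T3 gave a library high in markers of heart, muscle and connective tissue; its values stand with the core proteins it touches.

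Of the 42 genes, 41 had enough reads to be tested. With T3, 7 of them were higher and 2 lower at an adjusted p under 0.05 (limma, Benjamini-Hochberg over 13663 genes), where 5.52% of all genes tested passed, 3.37% higher and 2.14% lower. The raised genes were Extl2, Hs6st1, Hs3st4, Hs3st5, Sulf2, Gpc6 and Sdc4, and the lowered genes were Ndst3 and Hs6st2. Ndst3 stays in these counts although its decrease was known when the family was chosen, so its call is a description. The median log2 difference, T3 minus no T3, was 0.02 over the 41 genes and 0.00 over all genes, with 24 above 0 and 17 below. The library ranges of the groups failed to overlap for 1 gene, Ndst3, where 1.68% of all genes tested showed no overlap, 1.05% with T3 above and 0.622% with T3 below. Since the family was proposed from this contrast, nothing is read from these shares. At an unadjusted p under 0.05, 16 of the 41 passed, where 17.5% of all genes tested did. Genes whose call rested on particular libraries are named with their values below, since 8 of the 9 calls were lost in a fit without the mouse as a block.

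**Figure D1:**
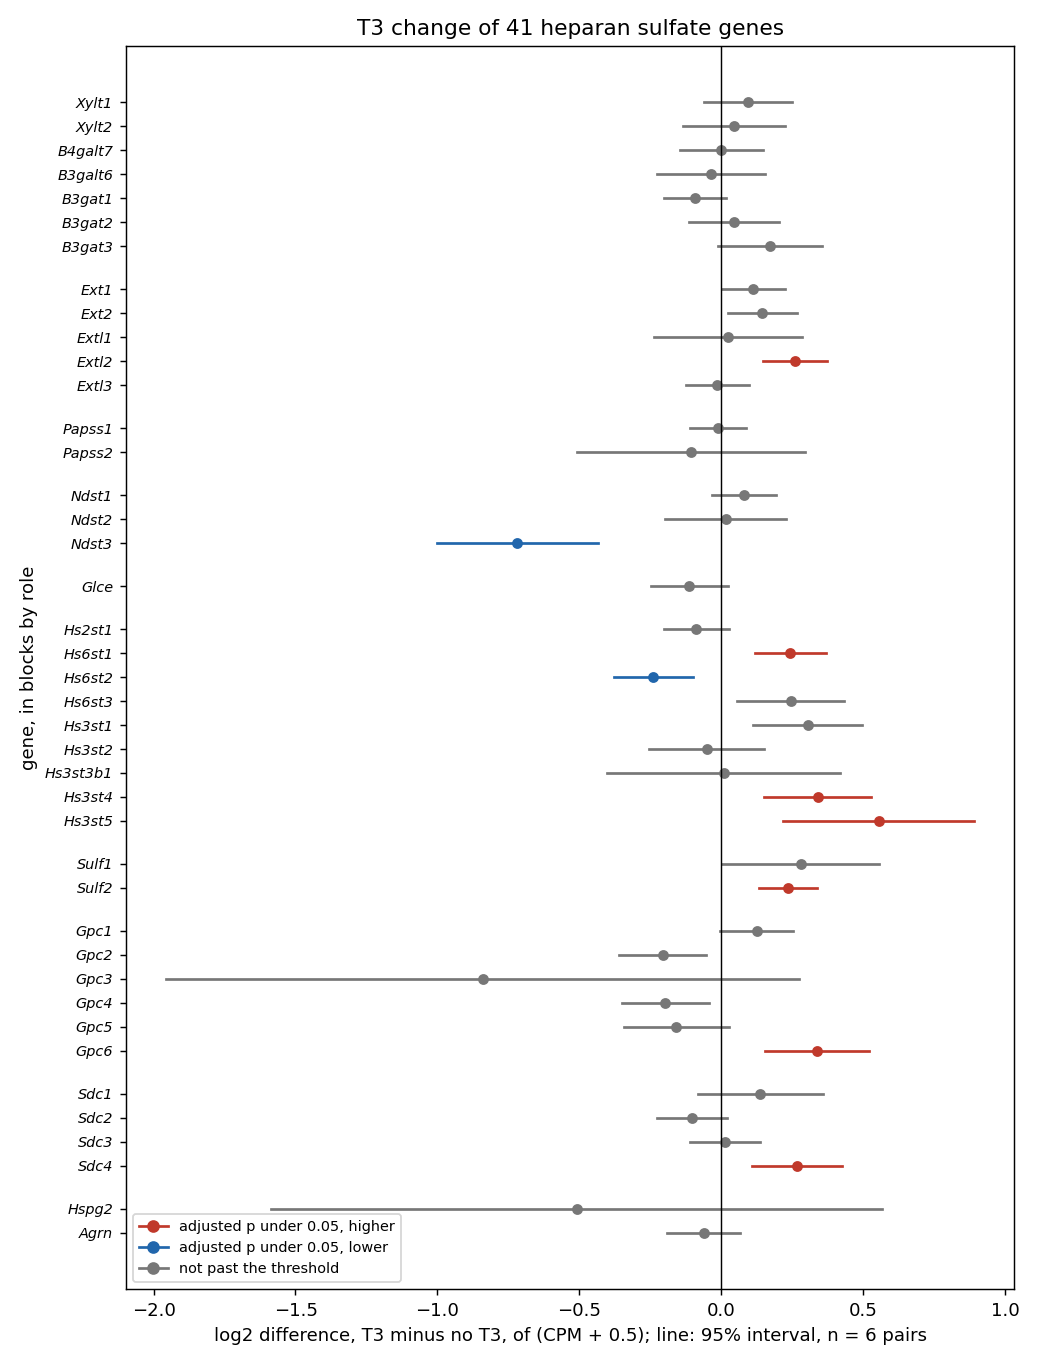
The log2 difference (T3 minus no T3, of CPM + 0.5) with its 95% interval is drawn for the 41 tested genes, in blocks by role, with 6 pairs of cultures for each. Ndst3 lies at -0.72, and the 7 raised genes lie between 0.23 and 0.55; Gpc3 and Hspg2 have the widest intervals.

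Ndst3, an N-deacetylase/N-sulfotransferase (chromosome 3, 123526166 to 123690853, minus strand, GRCm38), showed the largest difference among the called genes. The Ndst enzymes replace the acetyl group of glucosamine with sulfate, the step on which most later sulfation depends. Without T3, Ndst3 stood at 8.35, 9.40 and 9.96 CPM (lowest, median and highest of 6), and with T3 at 3.96, 5.42 and 7.78. Every T3 culture lay below every culture without T3. The mean was 9.26 ± 0.681 CPM without T3 and 5.54 ± 1.36 with T3 (SD, n = 6), a log2 difference of -0.72 (SE 0.136) and a level 1.65-fold lower. By mouse the log2 difference ran from -1.20 in mouse 6 to -0.10 in mouse 4, so mouse 4 barely moved. These values rest on 38 to 76 reads per library.

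The other Ndst genes did not pass the test. Ndst1, the broadly expressed form, was at 193.0, 209.8 and 234.2 CPM without T3 and at 209.6, 222.0 and 240.7 with it, with a log2 difference of 0.08 (SE 0.054) and an adjusted p of 0.494 (higher in 3 of 6 mice). Ndst2, the form of mast cells that is also found elsewhere, stood at 13.9 ± 1.97 and 14.0 ± 1.45 CPM (SD, n = 6), with an adjusted p of 0.967. Ndst4 was held by 3 to 15 reads per library and was not tested. Per length of exons (CPM per kilobase), Ndst1 made up 86.2% ± 1.60 of the summed level of the 4 genes without T3 and 87.9% ± 0.832 with T3 (SD, n = 6). The share of Ndst3 was 3.17% ± 0.172 without T3 and 1.82% ± 0.382 with T3 (SD, n = 6). Ndst3 was thus a minor part of the Ndst transcripts in both groups. The ratio of Ndst3 reads to Ndst1 reads was 0.0439 ± 0.00226 without T3 and 0.0247 ± 0.0053 with it (SD, n = 6), lower in 6 of 6 mice; it contains the Ndst3 change that is described here and adds no test to it.

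**Figure D2:**
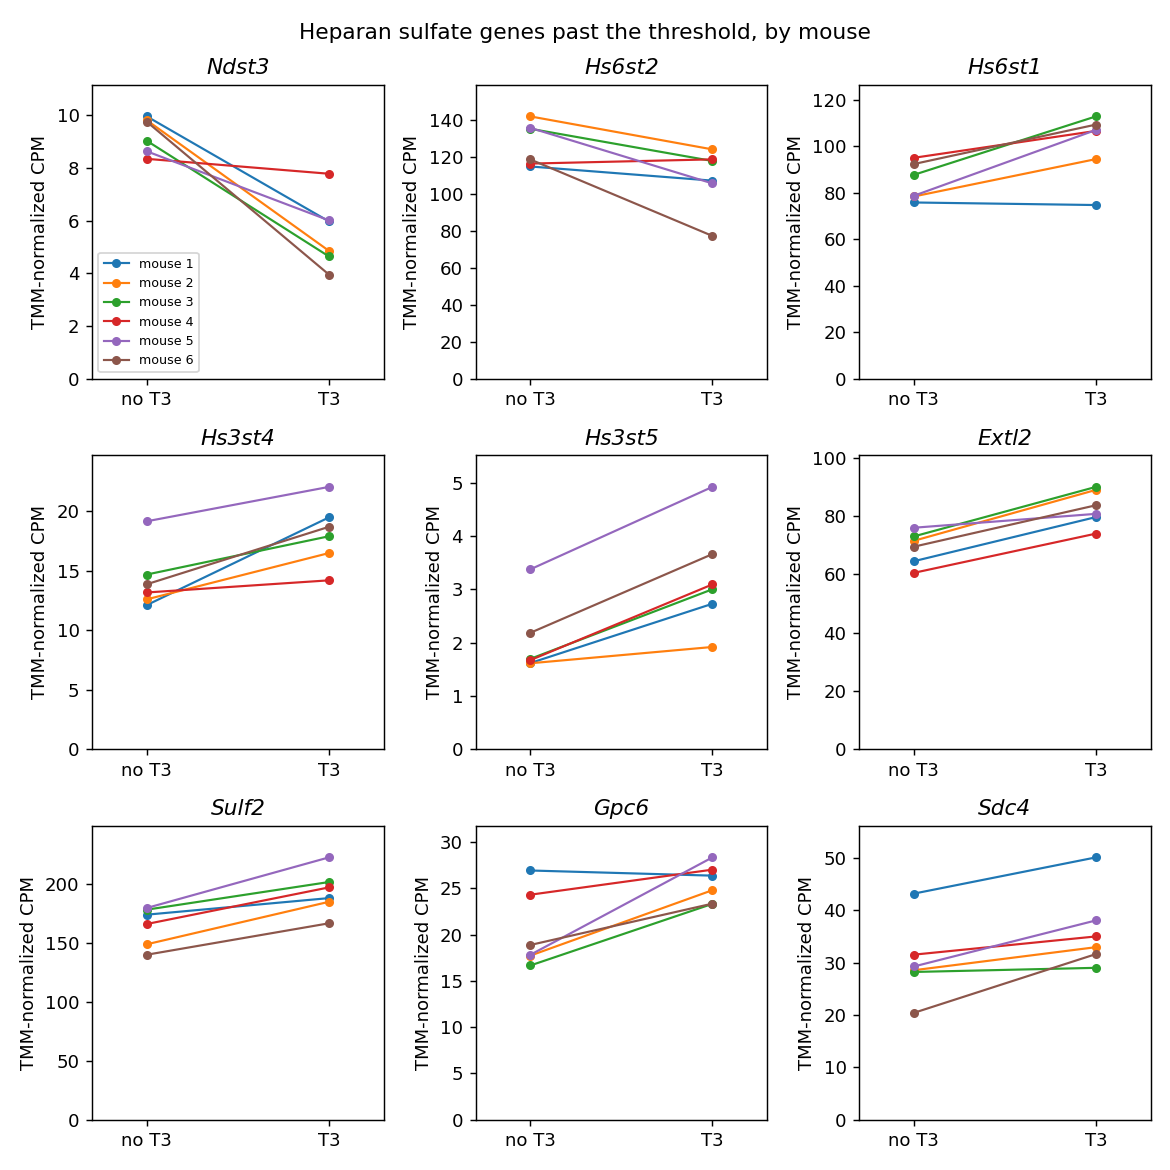
Each panel gives TMM-normalized CPM (axis from 0) of a called gene in the 6 cultures without T3 and the 6 with T3, with a line for each mouse. Ndst3 is lower with T3 in every mouse, at 3.96 to 7.78 CPM against 8.35 to 9.96, while Hs6st2 is lower in 5 of 6 and the other 7 genes are higher in 5 or 6 of 6.

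The genes for 6-O-sulfation, which adds sulfate to carbon 6 of glucosamine, moved in opposite directions. Hs6st1 (chromosome 1, 36068400 to 36106446, plus strand) was at 75.8, 83.2 and 95 CPM (lowest, median, highest) without T3 and at 74.7, 106.8 and 112.8 with it. It was higher in 5 of 6 mice, with mouse 1 slightly lower, and the groups overlapped. On the log2 scale it differed by 0.24 (SE 0.060), with an adjusted p of 0.0181; without mouse 3 the adjusted p was 0.103, without mouse 5 0.0777, and with no block 0.331. Hs6st2 (chromosome X, 51387212 to 51681856, minus strand) was at 115.0, 127.1 and 142.1 CPM without T3 and at 77.3, 112.6 and 124.2 with it. It was lower in 5 of 6 mice, and mouse 6 dropped farthest. Its log2 difference was -0.24 (SE 0.067) with an adjusted p of 0.0397; it was 0.0681 without mouse 2, 0.105 without mouse 3, 0.125 without mouse 5, 0.172 without mouse 6 and 0.381 with no block. An antisense gene covers 8.07% of the exons of Hs6st1, and the kit did not mark strand.

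Hs6st3, the third enzyme of this step, was at 12.0, 19.5 and 21.6 CPM without T3 and at 16.2, 21.9 and 25.0 with it, with a log2 difference of 0.24 (SE 0.090, adjusted p 0.136), higher in 6 of 6 mice. Per length, Hs6st1, Hs6st2 and Hs6st3 held 36.3% ± 2.48, 38.8% ± 4.13 and 24.9% ± 3.50 of their sum without T3. With T3 they held 40.8% ± 3.87, 31.3% ± 4.70 and 27.9% ± 1.52 (SD, n = 6 each). These shares depend on the length used. Without T3 the levels were 15.3, 16.3 and 10.6 CPM per kilobase of all exons, and 22.8, 29.3 and 10.6 with the longest transcript. The number of Hs6st2 reads for each Hs6st1 read was 1.52 ± 0.232 without T3 and 1.10 ± 0.257 with T3 (SD, n = 6), lower in 6 of 6 mice, and the values of the groups overlapped. The difference between the genes was not tested apart from their own tests.

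**Figure D3:**
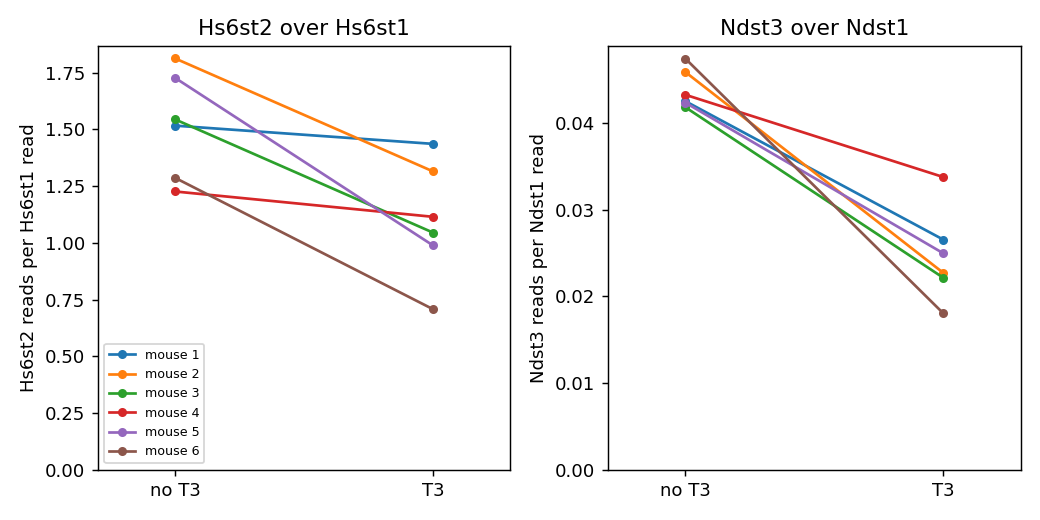
The left panel gives Hs6st2 reads for each Hs6st1 read and the right panel Ndst3 reads for each Ndst1 read, for each mouse without and with T3, on axes that start at 0. Both ratios are lower with T3 in 6 of 6 mice, with means of 1.52 and 1.10 on the left and 0.0439 and 0.0247 on the right.

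The 3-O-sulfotransferases add the rarest sulfate group of the chain. Of the 5 listed, 2 passed the test, where 5.52% of all genes tested did. Hs3st4 (chromosome 7, 123982869 to 124398989, plus strand), an enzyme known from neurons, was at 12.1, 13.5 and 19.2 CPM without T3 and at 14.2, 18.3 and 22.1 with it. It was higher in 6 of 6 mice with a log2 difference of 0.34 (SE 0.090, adjusted p 0.0297), and mouse 5 was the highest in both groups. The call was lost with DESeq2 (adjusted p 0.172), with no block (0.26) and without mouse 1 (0.0903), 2 (0.066), 3 (0.0787) or 6 (0.0881). Hs3st5 (chromosome 10, 36506814 to 36834397, plus strand) was at 1.61, 1.68 and 3.37 CPM without T3 and at 1.92, 3.05 and 4.92 with it, on 9 to 54 reads per library. It was higher in 6 of 6 mice, with mouse 5 again the highest in both groups. Its log2 difference was 0.55 (SE 0.161, adjusted p 0.0479), and that call was lost in 9 of 15 alternatives, among them libraries thinned to equal depth, in which the log2 difference was 0.36 and the adjusted p 0.391, DESeq2 (0.365), no block (0.306) and leaving out mouse 1, 3, 4, 5 or 6 (0.0856 to 0.144).

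Hs3st1, which makes the antithrombin-binding form, lay just outside the threshold at 9.52, 12.5 and 13.4 CPM without T3 and 12.5, 14.9 and 15.6 with it, with a log2 difference of 0.30 (SE 0.092, adjusted p 0.0577), higher in 6 of 6 mice. Hs3st2, known from neurons, was at 23.1 ± 3.78 and 22.5 ± 4.65 CPM (SD, n = 6; adjusted p 0.848), and Hs3st3b1 at 1.26 ± 0.513 and 1.27 ± 0.479 (SD, n = 6; adjusted p 0.992). Hs2st1, the 2-O-sulfotransferase of iduronic acid, stood at 133.6 ± 14.0 and 125.4 ± 9.13 CPM (SD, n = 6), lower in 5 of 6 mice with an adjusted p of 0.451. Glce, the epimerase that makes iduronic acid, was at 49.3 ± 3.83 and 45.7 ± 5.46 (SD, n = 6; adjusted p 0.403). The sums of astrocyte and oligodendrocyte markers were higher with T3 in the same cultures, and their part in these differences was not tested.

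Sulf2 (chromosome 2, 166073089 to 166155663, minus strand) and Sulf1 code for secreted enzymes that remove 6-O-sulfate from finished chains. Sulf2 was at 139.8, 169.8 and 179.5 CPM without T3 and at 166.5, 192.4 and 222.3 with it. It was higher in 6 of 6 mice, although the ranges overlapped. The log2 difference was 0.23 (SE 0.049) with an adjusted p of 0.00506, lost only with no block (0.212). Sulf2 made up 96.5% ± 1.91 of the pair's summed level per length without T3 (SD, n = 6). Sulf1 varied far more between mice: it was at 21.7, 10.3, 2.96, 17.6, 11.3 and 6.29 CPM without T3 in mouse 1 to 6, a span of 7.31-fold, and the span with T3 was 8.93-fold. Its log2 difference was 0.28 (SE 0.132, adjusted p 0.277), higher in 4 of 6 mice. The sum of 3 choroid plexus and ependyma markers was 412.2, 176.1, 10.0, 154.9, 133.5 and 19.4 CPM in the same libraries, with the same highest and lowest mouse; its part in the spread of Sulf1 was not tested.

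In chain polymerization 1 of 5 genes passed, where 5.52% of all genes tested did. Extl2 (chromosome 3, 116007462 to 116029017, plus strand) codes for an exostosin-like glycosyltransferase that can cap the linker and halt the chain. It was at 60.5, 70.5 and 76.0 CPM without T3 and at 73.9, 82.2 and 89.98 with it, and was higher in 6 of 6 mice, with ranges that overlapped between 73.9 and 76.0. The log2 difference was 0.26 (SE 0.054) with an adjusted p of 0.00547, lost only with no block (0.0793). Ext1 and Ext2, the copolymerase, were at 79.6 ± 3.77 and 86.1 ± 2.87 CPM and at 54.3 ± 1.88 and 60.2 ± 4.96 CPM (SD, n = 6), with log2 differences of 0.11 and 0.14 and adjusted p of 0.266 and 0.187. Extl3, which adds the opening glucosamine, was at 164.1 ± 10.9 and 162.4 ± 8.95 (SD, n = 6; adjusted p 0.937), and Extl1 at 6.16 ± 1.15 and 6.32 ± 1.59 (SD, n = 6; adjusted p 0.956).

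The linker enzymes gave no call: 0 of 7 passed, also with edgeR and with DESeq2, and 0 of 7 had an unadjusted p under 0.05. Over all genes tested, 5.52% passed with limma and 17.5% had an unadjusted p under 0.05, and nothing is read from the 0 of 7. Their log2 differences ran from -0.09 for B3gat1 to 0.17 for B3gat3, the glucuronyltransferase that completes the linker (44.7 ± 3.21 and 50.9 ± 8.28 CPM; SD, n = 6; adjusted p 0.326). B3gat3 was higher in 5 of 6 mice, and it passed when mouse 1 was left out (log2 0.28, adjusted p 0.0144). B3gat1 and B3gat2 are best known for making the HNK-1 epitope of neural adhesion molecules. B3gat1 was at 209.7 ± 15.8 and 197.2 ± 23.1 CPM, and B3gat2 at 22.3 ± 2.01 and 23.0 ± 2.10 (SD, n = 6); Smap1 covers 33.5% of the exons of B3gat2 on the opposite strand. The xylosyltransferases that start the linker, Xylt1 and Xylt2, were at 26.1 ± 2.33 and 27.8 ± 2.25 CPM and at 19.8 ± 1.79 and 20.6 ± 3.08 CPM (SD, n = 6). The galactosyltransferases B4galt7 and B3galt6 differed by a log2 of 0.00 and -0.04. Papss1 and Papss2, which make the sulfate donor, gave 0 of 2 calls with each of limma, edgeR and DESeq2 and 0 of 2 at an unadjusted p under 0.05. Beside the same shares over all genes, nothing is read from these counts. Papss1 stood at 143.8 ± 6.29 and 142.7 ± 5.20 CPM (SD, n = 6), and Papss2 at 1.9 ± 0.842 and 1.80 ± 1.02 (SD, n = 6).

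Among the glypicans, core proteins held in the membrane by a lipid anchor, 1 of 6 passed, where 5.52% of all genes tested did. Gpc6 (chromosome 14, 116925315 to 117976544, plus strand), known as an astrocyte-secreted signal for synapse formation, was at 16.7, 18.3 and 26.9 CPM without T3 and at 23.3, 25.6 and 28.3 with it. It was higher in 5 of 6 mice and lower in mouse 1. The log2 difference was 0.34 (SE 0.088) with an adjusted p of 0.0261. The call was lost with DESeq2 (0.115), no block (0.219), equal depth (0.112) and without mouse 2 (0.0737), 3 (0.113), 5 (0.115) or 6 (0.0539). The astrocyte marker sum was higher with T3 in 6 of 6 mice; its part in this difference was not tested. Gpc4, the other glypican known from astrocytes, did not pass over the 6 mice. It was at 36.2, 46.9 and 56.1 CPM without T3 and at 30.4, 39.3 and 56.0 with it, lower in 5 of 6 mice, with a log2 difference of -0.20 (SE 0.073, adjusted p 0.139). Without mouse 6 the log2 difference was -0.26 and the adjusted p 0.0436.

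Gpc1, an abundant neuronal glypican, was at 87.6 ± 9.50 and 95.3 ± 7.71 CPM (SD, n = 6; adjusted p 0.308), and Ankmy1 covers 18.9% of its exons on the other strand. Gpc2, a glypican of immature neurons, was at 44.1 ± 10.8 and 38.4 ± 10.97 (SD, n = 6), with a log2 difference of -0.21 and an adjusted p of 0.117. A gene model, Gm43720, covers 55.6% of the Gpc2 exons on the same strand, and 46.8% of its stretches of 75 bases, the read length, also occur in transcripts of other genes, so its counts are uncertain. Gpc5 stood at 21.5 ± 3.66 and 19.3 ± 4.04 CPM (SD, n = 6; adjusted p 0.39), lower in 5 of 6 mice. Per length and without T3, Gpc4 and Gpc1 held 29.8% ± 4.67 and 29.2% ± 2.42 of the summed glypican level (SD, n = 6), and Gpc6 held 5.43% ± 0.906, and 7.47% ± 0.840 with T3 (SD, n = 6). The sum includes Gpc2, and Gpc3, which held up to 24.8% of it in 1 library without T3. With the longest transcript as the length, Gpc1 stood at 21.0 and Gpc4 at 17.3 CPM per kilobase without T3, against 17.0 and 17.3 with all exons.

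Gpc3 and Hspg2 were far higher in 1 library than in the other 11. Gpc3, a glypican of growing tissues, stood at 9.15, 10.1, 7.62, 50.1, 11.3 and 7.06 CPM in mouse 1 to 6 without T3, and at 7.66, 6.39, 4.55, 5.49, 8.57 and 6.92 with T3. Mouse 4 without T3 stood 4.42-fold above the next library. For Gpc3 the log2 difference was -0.84 (SE 0.443, adjusted p 0.432) over 6 mice and -0.39 (adjusted p 0.103) without mouse 4, and the level was lower with T3 in 6 of 6. Hspg2, the basement membrane proteoglycan perlecan, stood at 14.1, 6.59, 6.92, 57.9, 7.56 and 8.73 CPM without T3 and at 10.8, 6.13, 5.32, 8.81, 7.84 and 11.4 with T3. Its log2 difference was -0.51 (adjusted p 0.645) with mouse 4 and -0.08 (adjusted p 0.831) without it. In the library of mouse 4 without T3 the sum of 7 mural cell and fibroblast markers was 439.6 CPM, against 43.5 to 165.0 in the other 11 libraries. The sum of 3 heart and muscle markers was 1213 CPM there, against 3.07 to 6.88 elsewhere. The part of such cells in the Gpc3 and Hspg2 values was not tested.

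**Figure D4:**
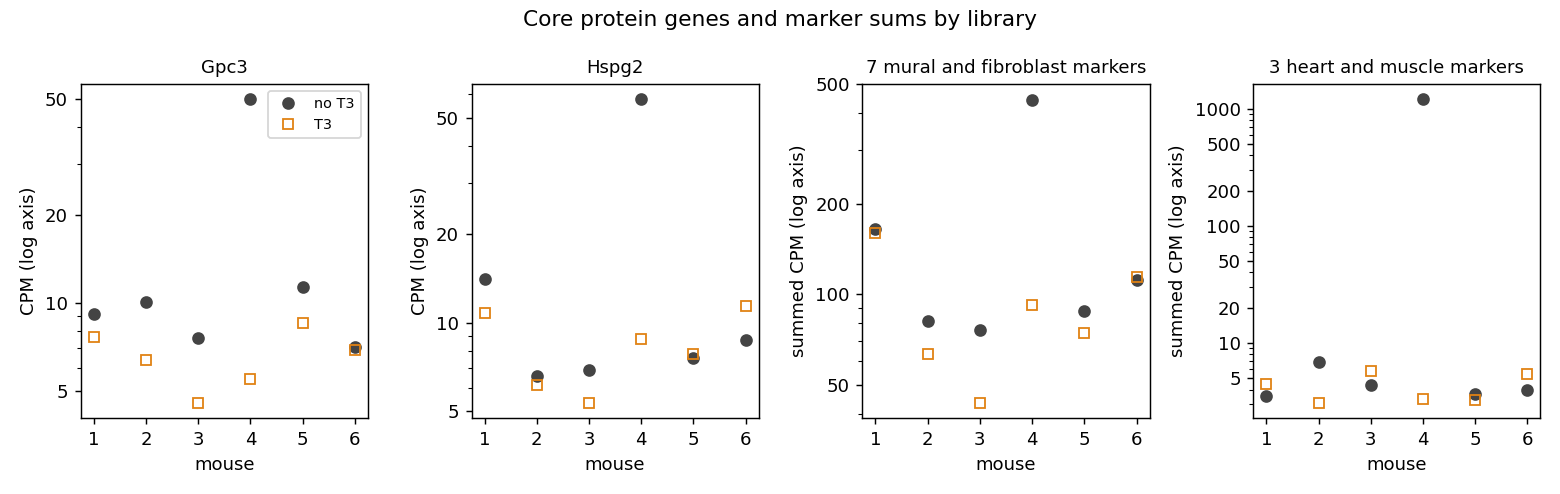
Levels of Gpc3 and Hspg2 (CPM) and the summed CPM of 7 mural and fibroblast markers and of 3 heart and muscle markers are drawn by mouse on log axes, with filled circles for no T3 and open squares for T3. In all 4 panels the library of mouse 4 without T3 is the highest, at 50.1, 57.9, 439.6 and 1213 CPM.

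Agrn, the second secreted core protein and the organizer of acetylcholine receptors at the neuromuscular junction, was at 207.9, 257.1 and 261.9 CPM without T3 and at 198.9, 247.8 and 256.6 with it (log2 difference -0.06, SE 0.062, adjusted p 0.676). The secreted core proteins gave 0 of 2 calls with limma, edgeR and DESeq2 and 0 of 2 at an unadjusted p under 0.05. Over all genes tested, 5.52% passed with limma and 17.5% had an unadjusted p under 0.05, and nothing is read from the 0 of 2. Among the syndecans, transmembrane core proteins, 1 of 4 passed, where 5.52% of all genes tested did. Sdc4 (chromosome 2, 164424247 to 164443887, minus strand), a partner of integrins at focal adhesions, was at 20.4, 28.9 and 43.2 CPM without T3 and at 29.0, 34.0 and 50.1 with it. It was higher in 6 of 6 mice, and the groups overlapped widely. The log2 difference was 0.27 (SE 0.076) with an adjusted p of 0.0444. The call was lost with DESeq2 (0.162), no block (0.632), equal depth (0.0626) and without mouse 2 (0.0655), 4 (0.0663), 5 (0.124) or 6 (0.194).

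Sdc4 and the astrocyte marker sum had the same extremes without T3: both were highest in mouse 1 (43.2 and 2387 CPM) and lowest in mouse 6 (20.4 and 722.5 CPM). With T3 both were again highest in mouse 1 (50.1 and 2794 CPM). The lowest mouse then differed: Sdc4 was lowest in mouse 3 (29.0 CPM) and the marker sum in mouse 6 (1090 CPM). The part of astrocytes in the Sdc4 difference was not tested. Sdc3, the neuronal syndecan, was at 777.2 ± 49.5 and 787.3 ± 86.5 CPM (SD, n = 6; log2 0.01, adjusted p 0.947), and Sdc2, the fibroglycan of synapses and mesenchyme, at 79.9 ± 6.86 and 75.2 ± 14.6 (SD, n = 6; adjusted p 0.404). Sdc1 stood at 10.7 ± 2.51 and 11.7 ± 2.09 CPM (SD, n = 6; adjusted p 0.568). Sdc3 held 77.6% ± 2.61 of the summed syndecan level per length without T3 and 77.1% ± 5.00 with T3 (SD, n = 6).

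On the scale of CPM per kilobase of exons, the levels of the 42 genes without T3 spanned from 129.8 ± 8.27 for Sdc3 to 0.0677 ± 0.024 for Ndst4 (SD, n = 6). Below Sdc3 came Papss1 (47.1 ± 2.06) and B3gat1 (42.3 ± 3.18). Then came a cluster of genes whose intervals of mean ± SD overlapped: Sulf2 at 28.0 ± 2.80, Extl3 at 27.1 ± 1.80, Agrn at 26.9 ± 2.23 and Ndst1 at 25.5 ± 1.69 (SD, n = 6 each). The lowest were Ndst3 (0.937 ± 0.0689), Papss2 (0.511 ± 0.226), Hs3st5 (0.466 ± 0.160), Hs3st3b1 (0.257 ± 0.104) and Ndst4 (SD, n = 6 each). Ndst3, whose decrease was known beforehand, and Hs3st5, past the threshold, were thus among the genes with the fewest reads per kilobase. With the longest transcript as the length in place of all exons, 26 of the 42 levels moved by more than their SD, by up to 2.02-fold.

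**Figure D5:**
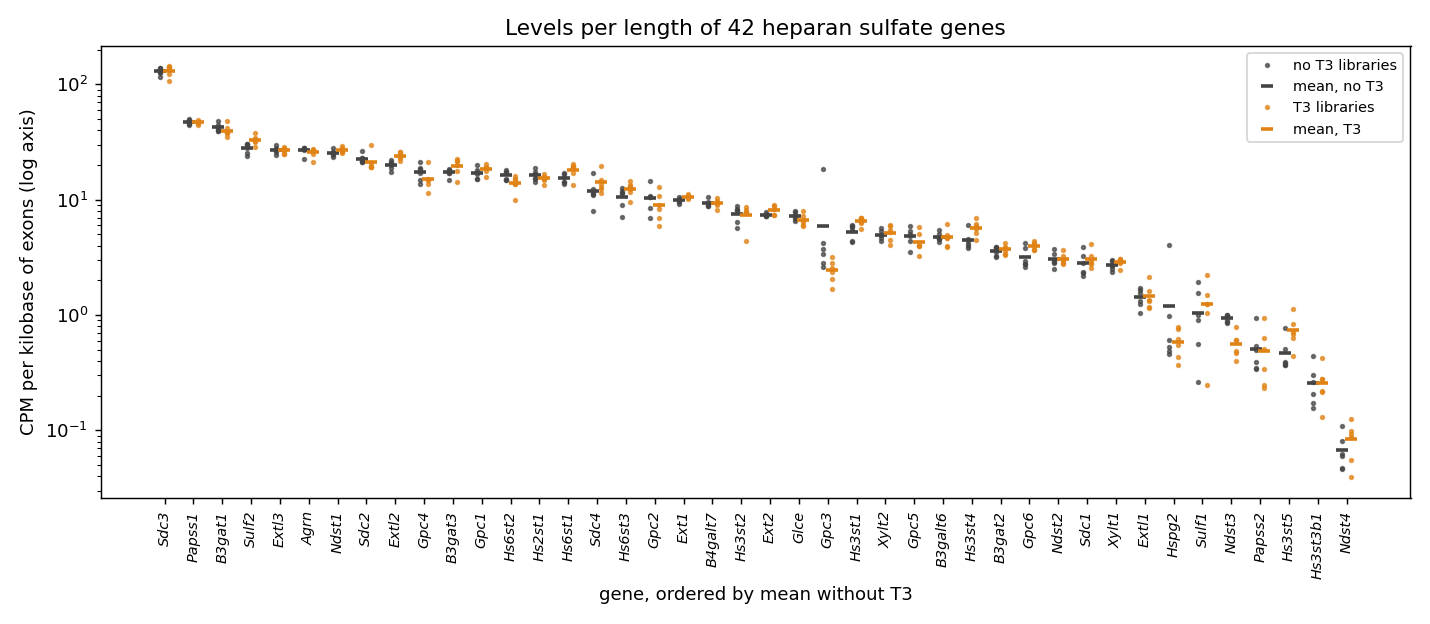
Points give each library's level per length (CPM per kilobase of exons, log axis) for the 42 genes, in grey without T3 and in orange with T3, with bars at the means; genes are ordered by the mean without T3. Sdc3 is alone at the top, near 130 in both groups, and Sulf1, Gpc3 and Hspg2 have the most scattered points.

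Other genes of glycosaminoglycan handling and of heparan sulfate binding were taken from lists chosen with earlier results of these data known. Counts over these lists therefore support nothing about a list as a whole, and nothing is read from their shares. The adjusted p of single genes come from the fit over all genes and are given as a description. Of 14 tested enzymes of chondroitin and dermatan sulfate, the sister polymers made on the same linker, 2 were higher and 1 lower, where 3.37% of all genes tested were higher and 2.14% lower. Ust, a 2-O-sulfotransferase of uronic acid, went from 51.2 ± 8.3 to 77.7 ± 12.5 CPM (SD, n = 6), a log2 difference of 0.60 (adjusted p 1.02e-06), and Chst11, a 4-O-sulfotransferase of chondroitin, from 120.0 ± 3.34 to 146.3 ± 5.17 (SD, n = 6; log2 0.28, adjusted p 0.000888). Chst15, which adds sulfate at carbon 6 of an already sulfated galactosamine, fell from 39.1 ± 2.32 to 32.2 ± 3.87 (SD, n = 6; log2 -0.28, adjusted p 0.015). For each of these 3 genes the groups did not overlap, as for 1.68% of all genes tested. The median log2 difference of the list was 0.08.

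Of 14 genes for sugar and sulfate donors, transporters and linker regulators, 0 passed with limma, edgeR and DESeq2, and 2 had an unadjusted p under 0.05, a level that 17.5% of all genes tested reached. Of 8 lysosomal enzymes that break the chain down, 0 passed with the 3 tools and 3 had an unadjusted p under 0.05. Of 5 genes tied to the release of core proteins from the membrane, proteases and the protease inhibitor Timp3, 0 passed with the 3 tools. At an unadjusted p under 0.05 there were 2, Adam10 and Timp3 itself. Inherited loss of such lysosomal enzymes causes the Sanfilippo and Hurler storage diseases. Of 9 part-time carriers and testicans, 2 were higher (3.37% of all genes tested): Spock1 (52.3 ± 3.27 to 66.2 ± 6.75 CPM, log2 0.33, adjusted p 0.00297) and Spock3 (66.3 ± 8.77 to 77.7 ± 6.94, log2 0.23, adjusted p 0.0313; SD, n = 6).

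Among 27 tested ligands and receptors that bind heparin or heparan sulfate, 2 were higher and 4 lower, where 3.37% and 2.14% of all genes tested were, and the median log2 difference of the list was -0.04. Shh, a morphogen and a T3 target in neurons, rose from 1.85 ± 0.397 to 10.4 ± 2.29 CPM (SD, n = 6; log2 2.20, adjusted p 1.19e-08). Slit ligands and their Robo receptors steer axons. Robo2 was higher (142.2 ± 21.6 to 172.5 ± 17.5, log2 0.28, adjusted p 0.00133), while Robo1 was lower (141.8 ± 23.1 to 115.8 ± 12.5, log2 -0.28, adjusted p 0.0037; SD, n = 6). Slit2 was lower (70.5 ± 7.62 to 54.1 ± 7.78, log2 -0.38, adjusted p 0.00191), as was Slit3 (35.4 ± 3.90 to 27.7 ± 3.06, log2 -0.35, adjusted p 0.00392; SD, n = 6). Slit1 did not pass (108.2 ± 8.53 and 102.2 ± 10.2 CPM, log2 -0.08, adjusted p 0.467; SD, n = 6). Nrp1, a co-receptor for semaphorins and vascular growth factor, was lower without overlap of the groups (199.5 ± 10.8 to 155.9 ± 9.65, log2 -0.36, adjusted p 8.1e-05; SD, n = 6).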

How the data were processed

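RNA sequencing of 12 libraries was analysed, 6 without T3 and 6 with it. Per the labels' protocols, 500 ng of total RNA went into an unstranded TruSeq kit and single reads of 75 bases were sequenced. The submitters' processing notes name GRCm38 as the build and list Bowtie, TopHat, HTSeq, edgeR, CASAVA and FastQC, with no version. What the authors deposited is a signal per gene: counts scaled by TMM, per the file headers, read here as TMM-normalized CPM. The table listed 14801 genes, 14648 with a symbol, and 0 columns of no sample.

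The family and every gene list were chosen with earlier results of these data known. All genes by the family's symbol rule are described, and of each list the members past the threshold, at most the 6 with the smallest p.

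The main test was limma 3.58.1 (R 4.3.3) on log2(value + 0.5), with the mouse as a block, a mean-variance trend and robust variances, two-sided, Benjamini-Hochberg over all genes tested, threshold 0.05. This scale understates the change of low genes. Genes passed filterByExpr of edgeR 4.0.16 on recovered reads (13663 tested, 1138 removed); 41 of the 42 family genes passed, and Ndst4 did not. Values were whole multiples of 1 read in 100% of cases within 0.01 reads, and edgeR on those reads called 775 genes, where limma called 754. Every adjusted p is from limma unless another tool is named; DESeq2 was version 1.42.0. The fit was tested on simulated data.

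The pairing is stated in the series' design. The deviations of the 6 pairs from their group means correlated at 0.237 to 0.638, and libraries of different mice at a median of -0.106 and at most 0.348. Replicates are separate fetuses. Lengths and overlaps come from GENCODE release M21 on GRCm38, and promoters from RefSeq. Alternatives were another pseudocount (0.25 or 1), other filters, RLE scaling, edgeR, DESeq2, no block, each mouse left out and, chosen after seeing the data, libraries thinned to equal depth.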

Additional observations from a re-analysis of the deposited data

Results flagged for a closer look

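Of 84 groups of 6 libraries (42 genes in each of 2 conditions), 10 held a library far from the rest, where the gap to the nearest library, as a part of the group's range, passed Dixon's critical value. Chance marks about 1 in 20 groups. Mouse 4 without T3 stood at 50.1 CPM for Gpc3 (nearest 11.3) and 57.9 for Hspg2 (nearest 14.1). Mouse 5 without T3 was highest for Hs3st4 at 19.2 CPM (nearest 14.7) and Hs3st5 at 3.37 (nearest 2.18), and lowest for B3gat3 at 38.7 (nearest 44.3) and Agrn at 207.9 (nearest 251.2). Mouse 1 with T3 was lowest for Hs3st2 at 13.2 CPM (nearest 23.2), and highest for Gpc4 at 56.0 (nearest 39.9) and Sdc2 at 104.7 (nearest 73.4). Mouse 1 without T3 was highest for Papss2 at 3.50 CPM (nearest 2.02).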

How the results depend on the processing

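The mouse block carried most calls: with no replicate block, 178 genes passed over all (125 higher, 53 lower) and 1 of the 41 heparan sulfate genes. That gene was Ndst3, whose decrease was known when the family was chosen, so its call is a description and supports nothing. In the same limma fit 0 of the family were higher, where 125 genes were higher over all. With the block, edgeR called 7 of the family higher and 465 over all genes. DESeq2 called 5 of the family (3 higher) and 306 higher over all genes. Libraries thinned to equal depth gave 4 of the family higher and 408 over all genes. Leaving out 1 mouse at a time gave 459 to 859 genes (304 to 529 higher, 155 to 330 lower) and 4 to 8 of the family (3 to 6 higher, 1 to 2 lower). The log2 difference of Ndst3, given as a description, ran from -0.84 to -0.62 over the 15 alternatives.

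The direction turned in 11 genes, each of which passed in no setting run. Leaving out 1 mouse at a time gave log2 differences of -0.0102 to 0.107 for Xylt2, -0.0149 to 0.0346 for B4galt7, -0.096 to 0.00296 for B3galt6, -0.0398 to 0.0725 for Extl1, -0.0543 to 0.0137 for Extl3, -0.212 to 0.0179 for Papss2, -0.0500 to 0.0745 for Ndst2, -0.147 to 0.0475 for Hs3st2, -0.0554 to 0.0933 for Hs3st3b1 (only without mouse 2, 3 or 6, since it was below the filter in the other 3 fits) and -0.0423 to 0.0656 for Sdc3. Equal depth gave Xylt2 -0.025, B4galt7 -0.0208, Extl1 -0.114 and Papss1 0.00941. B4galt7 was at -0.00473 with RLE and -0.00377 with DESeq2. Causes were not tested. Depth limits Ndst4 (3 to 15 reads) and Hs3st5 (9 to 54).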
